A study of Homo sapiens with 58 samples.

Results

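HepG2 cells exposed for 24 h to the low dose of a Scutellariae Radix extract were compared with cells that received the DMSO vehicle. The members were the 3 libraries labelled Scutellariae Radix low and the 3 labelled Vehicle, 6 of the 58 libraries in the series. In this bulk RNA sequencing series, single herbs and herbal formulas were each tested at up to 3 doses. The low dose was 20 µg/mL of a 70% ethanol extract, and its own dose series went on to 100 and 500 µg/mL with 3 libraries each. The vehicle was DMSO, given as 0.1% in the sample labels and as 2% in the series text. HepG2 is an established line from a human hepatocellular carcinoma, so all groups shared the genotype of 1 line and none held normal liver cells. A second reference was Pinelliae Tuber low, with 3 libraries of cells given 20 µg/mL of a 70% ethanol extract of that tuber for 24 h. All libraries carry the same batch name in the labels, but both extracts have the label prefix 10 and the vehicle has C1, so in the vehicle comparison the extract and whatever the prefix marks cannot be told apart. The comparison with Pinelliae Tuber low used no vehicle library. The labels number the replicates and do not say whether each came from its own culture. The p-values therefore measure only the spread between these samples, which may be technical.

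Scutellariae Radix is the root of Scutellaria baicalensis, a source of flavones such as baicalin, baicalein and wogonin. Planar aromatic compounds can bind the aryl hydrocarbon receptor (AhR), which pairs with ARNT on xenobiotic response elements and drives genes of phase I metabolism, CYP1A1 foremost. The factor NRF2 is held down by KEAP1 and, once freed by electrophiles or oxidants, acts at antioxidant response elements of genes for glutathione and thioredoxin metabolism. Metallothioneins are small cysteine-rich proteins that bind zinc and copper, and the zinc-sensing factor MTF1 acts on them through metal response elements.

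The promoter windows of 4 genes from these families are shown as examples that hold the family's motif, each running from 250 bases before to 50 bases after the transcription start (RefSeq, GRCh38.p14). Capitals mark the core of the element that the family is known for, searched on both strands: GCGTG for the xenobiotic response element, TGACNNNGC for the antioxidant response element, and TGCACNC or TGCGCNC for the metal response element.
CYP1A1, chr15:74725479-74725778, minus strand: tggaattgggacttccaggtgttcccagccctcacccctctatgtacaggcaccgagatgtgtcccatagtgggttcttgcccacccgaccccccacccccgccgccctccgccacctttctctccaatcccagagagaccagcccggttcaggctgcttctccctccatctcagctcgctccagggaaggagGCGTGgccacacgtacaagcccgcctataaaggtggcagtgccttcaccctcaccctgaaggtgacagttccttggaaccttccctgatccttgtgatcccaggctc
GCLM, chr1:93909381-93909680, minus strand: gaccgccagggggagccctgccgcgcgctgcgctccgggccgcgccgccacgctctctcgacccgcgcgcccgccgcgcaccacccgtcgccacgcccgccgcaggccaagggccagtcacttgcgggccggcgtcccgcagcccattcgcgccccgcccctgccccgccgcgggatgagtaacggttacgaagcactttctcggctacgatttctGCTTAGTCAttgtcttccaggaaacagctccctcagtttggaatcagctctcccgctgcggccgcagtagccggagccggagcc
MT1X, chr16:56682220-56682519, plus strand: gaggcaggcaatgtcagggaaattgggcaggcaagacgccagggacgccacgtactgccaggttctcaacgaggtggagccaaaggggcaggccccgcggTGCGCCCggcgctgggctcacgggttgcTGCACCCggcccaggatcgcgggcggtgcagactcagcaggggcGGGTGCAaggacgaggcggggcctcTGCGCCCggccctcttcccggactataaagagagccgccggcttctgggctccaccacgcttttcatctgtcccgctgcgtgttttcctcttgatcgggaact
MT2A, chr16:56608334-56608633, plus strand: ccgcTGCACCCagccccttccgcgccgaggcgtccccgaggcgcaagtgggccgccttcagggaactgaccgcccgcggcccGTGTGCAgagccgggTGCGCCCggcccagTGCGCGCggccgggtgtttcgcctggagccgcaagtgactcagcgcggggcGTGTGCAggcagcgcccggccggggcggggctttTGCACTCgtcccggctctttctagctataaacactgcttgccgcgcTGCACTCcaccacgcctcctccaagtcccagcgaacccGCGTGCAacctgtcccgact
The CYP1A1 window held 1 match, that of GCLM 1, that of MT1X 4 and that of MT2A 8. Of all 35116 windows in the RefSeq table, 36.5% held the first motif, 13.3% the second and 29.6% the third. Matches were not general among AhR and NRF2 genes. The first motif was held by 7 of 13 windows of AhR genes (53.8%) and the second by 6 of 19 windows of NRF2 genes (31.6%). On the metallothionein list, 4 of 4 windows held the third, those of MT1H, MT1X, MT2A and the zinc exporter gene SLC30A1. The other listed metallothionein genes had no window to search. The windows of CYP1A2, for the first motif, and of NQO1, GCLC and SRXN1, for the second, held none. A match is a string of letters and was not tested as a bound site. The letters GCGTG can lie inside a metal element read on the other strand, and an antioxidant element can coincide with an AP-1 site.

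The libraries were deep and alike in total. Scutellariae Radix low libraries held 30060956, 24994692 and 26749057 estimated reads and Vehicle libraries 24077535, 26409029 and 25174831, within a range of 22143845 to 31859981 over the series. The 10 hepatocyte markers, such as ALB, APOB and HNF4A, summed to between 40300 and 41800 CPM (counts scaled to library size) in Scutellariae Radix low and between 40900 and 41600 in Vehicle. Lung markers summed to at most 0.0757 CPM in Scutellariae Radix low and 0.0786 in Vehicle. The leukocyte list was nearly all LYZ, which HepG2 cells carry, at means of 1370 and 1330 CPM, while PTPRC and CD3E had no reads in either group.

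Scutellariae Radix low replicate 3 stood apart from its replicates. Chi-square per gene between it and replicates 1 and 2 was 17.2 and 13.7, against 3.39 between replicates 1 and 2 and between 2.19 and 6.24 among Vehicle libraries. Its ratio to the other replicates fell by 0.052 on the log2 scale for each doubling of transcript length, a steeper slope than in any of the 42 other libraries in groups of 3, which lay between -0.0325 and 0.0383. In the shortest of 5 length classes of about equal size, up to 1754 bases, the median log2 ratio of replicate 3 over replicates 1 and 2 was 0.10, and in the longest, from 5439 bases, it was -0.085. Its ratio also ran with GC content, at a slope of -0.0063 on the log2 scale per percentage point (r = -0.21, against -0.20 for length). That GC slope was not the steepest of the series. It was 0.01348 in Zingiberis Rhizoma Recens high replicate 1 and 0.01326 in Zingiberis Rhizoma low replicate 3, and 0.00563 in Scutellariae Radix low replicate 2. The counts of calls are therefore given with all libraries and without replicate 3. Genes below whose value without replicate 3 is not given kept their call without it, unless stated.

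At an adjusted p below 0.05, 759 of 13945 tested genes were higher in Scutellariae Radix low than in Vehicle and 679 were lower, 5.44% and 4.87% of those tested and 10.3% together. Only 19 of the 1438 calls reached a 2-fold change, and the median log2 fold change of all genes was 0.005. Without replicate 3, 340 genes were higher and 251 lower (2.44% and 1.8%), and 528 of these calls were shared with the full set in the same direction. Those 528 make up 36.7% of the calls with all libraries and 89.3% of the calls without replicate 3. No gene called in both fits changed sign. The libraries of both groups did not overlap in 24.9% of tested genes, and 9.35% were both called and without overlap, so a lack of overlap alone was common.

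The calls that came with replicate 3 were uneven over gene length. With all libraries the shortest length class had 215 higher and 33 lower calls, and without replicate 3 it had 39 and 23. In the longest class the counts were 158 higher and 148 lower with all libraries and 101 and 41 without replicate 3. With the length trend of each library taken out and all libraries kept, 634 genes were higher and 829 lower, and with replicate 3 also left out 345 and 312. With both length and GC trends taken out and all libraries kept, 751 were higher and 701 lower.

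**Figure D1:**
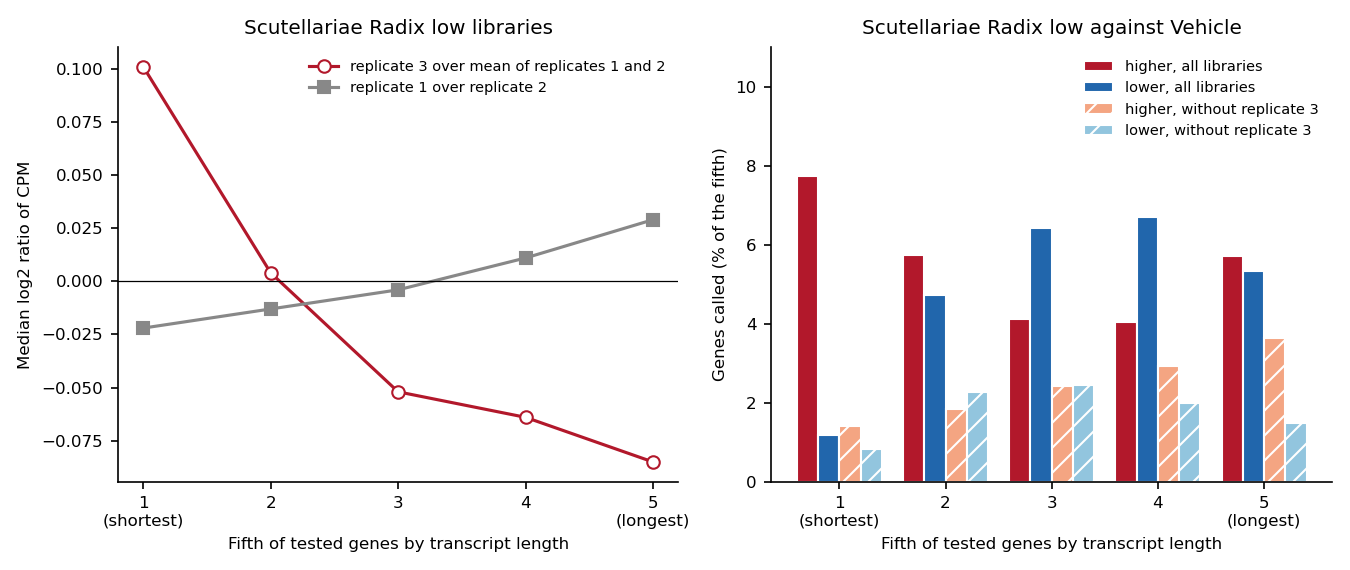
Left, median log2 ratio of CPM between the Scutellariae Radix low libraries in 5 classes of tested genes by transcript length; replicate 3 over replicates 1 and 2 runs from 0.10 in the shortest class to -0.085 in the longest, and replicate 1 over replicate 2 from -0.022 to 0.029. Right, share of each class called higher or lower against Vehicle with all libraries (solid) and without replicate 3 (hatched), where the 7.74% higher calls of the shortest class become 1.41%.

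Against Pinelliae Tuber low, 378 genes were higher in Scutellariae Radix low and 412 lower (2.71% and 2.95%, together 5.67%). Without replicate 3 the counts were 199 and 173 (1.43% and 1.24%). Pinelliae Tuber low itself differed little from Vehicle, with 33 genes higher and 5 lower (0.237% and 0.0359%, together 0.272%). In that comparison with Pinelliae Tuber low 20.7% of genes did not overlap, and 5.34% were called and did not overlap. Because the Scutellariae Radix libraries enter both comparisons, the results are set side by side and not counted as independent.

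The AhR battery held CYP1A1, the called gene with the lowest adjusted p and the highest log2 fold change. CYP1A1, the phase I monooxygenase gene whose promoter is printed above (chr15:74719542-74725610), reached 270, 238 and 203 CPM in Scutellariae Radix low, against 12.7, 10.8 and 14 CPM in Vehicle. Every extract library lay far above every Vehicle library, and replicate 3 was the lowest of the extract libraries. The rule for naming the largest rises required no overlap, so the separation is no separate result. The log2 fold change was 4.25 ± 0.0892 (SE), 19.0-fold, with an adjusted p of 5.2e-35 by edgeR's quasi-likelihood test. It was 4.35 without replicate 3. Pinelliae Tuber low stood at 14.2, 12.2 and 11.2 CPM, the Vehicle level, and the log2 fold change against it was 4.24 ± 0.0896.

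The smaller members of the battery differed among themselves. ALDH3A1, an aldehyde dehydrogenase gene, had 1.88, 1.79 and 1.44 CPM in Scutellariae Radix low and 0.412, 0.484 and 0.315 in Vehicle, a log2 fold change of 2.07 ± 0.233 (adjusted p = 2e-08). Its level in Pinelliae Tuber low was 0.637 ± 0.0992 CPM (SD, n = 3), between the other groups, and against that the log2 fold change was 1.42. CYP1A2, a close relative of CYP1A1 on the same chromosome, was near the detection limit, with 0.76, 0.438 and 0.454 CPM in Scutellariae Radix low and 0.0411, 0.0744 and 0 in Vehicle. So few reads fell on CYP1A2 in Vehicle that no fold is given, although it passed the test. AHRR, which encodes the repressor of AhR, had 1.19, 0.916 and 0.909 CPM in Scutellariae Radix low and 0.658, 0.67 and 0.59 in Vehicle, without overlap but with an adjusted p of 0.095.

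Other AhR genes were not called higher. TIPARP, a poly-ADP-ribose polymerase gene that feeds back on AhR, averaged 23.3 ± 2.18 CPM in Scutellariae Radix low and 23.8 ± 0.515 in Vehicle (SD, n = 3 each). Its log2 fold change was -0.03 ± 0.0685, a difference smaller than the spread between replicates. The receptor gene AHR gave 0.10 ± 0.0534 (adjusted p = 0.26), and its partner ARNT fell by 0.26 on the log2 scale (adjusted p = 0.00066). ARNT lost its call against Pinelliae Tuber low (adjusted p = 0.06). CYP1B1 and UGT1A6 lay under the read minimum and were not tested.

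In all, 4 of the 9 tested AhR genes were higher and 1 lower, both with all libraries and without replicate 3. The shares over all genes were 5.44% and 4.87%, and 2.44% and 1.8% without replicate 3. The median log2 fold change of the 9 was 0.59, against 0.005 over all genes. Against Pinelliae Tuber low, 5 were higher and none lower, against 2.71% and 2.95% over all genes. Among the 5 was AHRR (adjusted p = 0.045), whose call did not hold without replicate 3 (0.081). NQO1 is on both this list and the next.

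**Figure D2:**
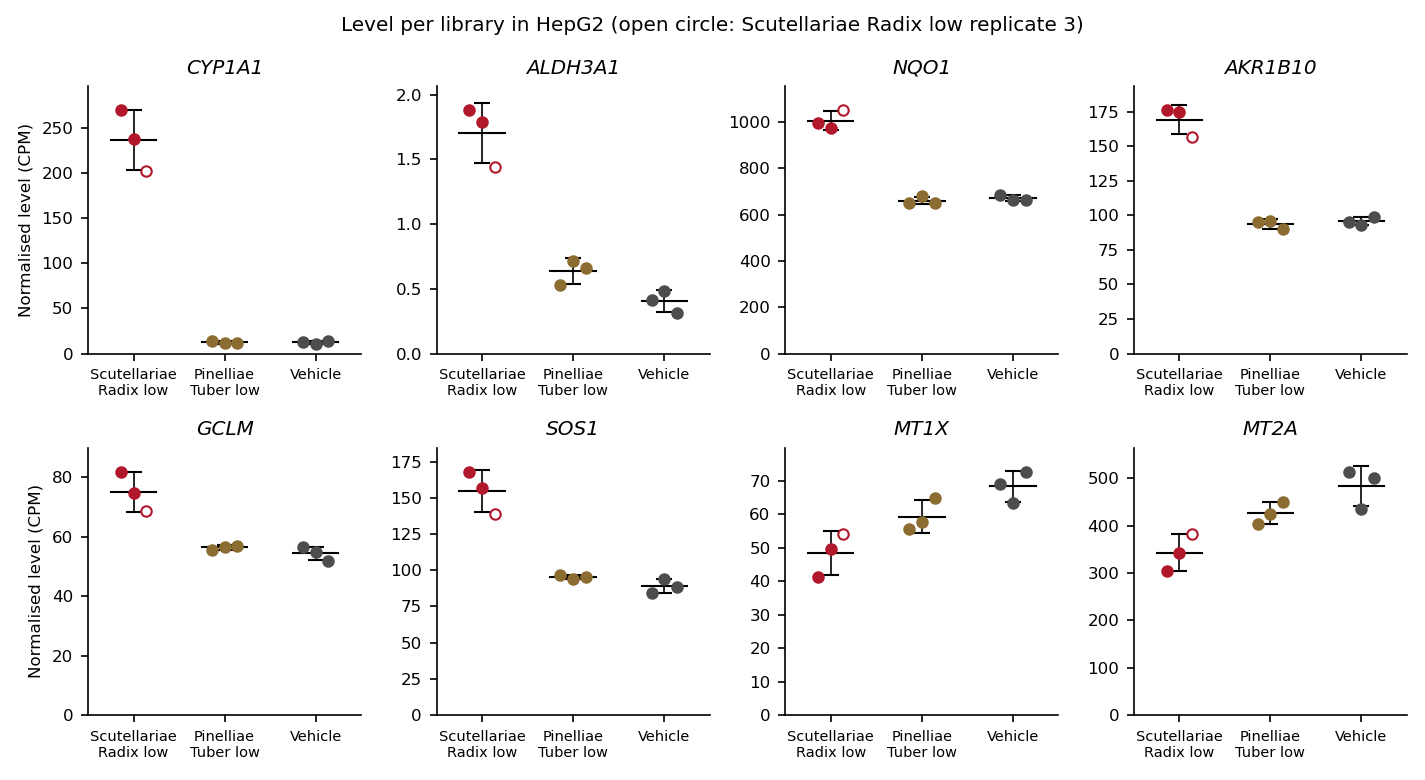
Normalised level in CPM of 8 genes in each library of Scutellariae Radix low, Pinelliae Tuber low and Vehicle; bars are the mean and 1 SD of 3 libraries and the open circle is Scutellariae Radix low replicate 3. CYP1A1, NQO1, AKR1B10, GCLM and SOS1 stand above both other groups, whose levels are close to each other, and MT1X and MT2A lie lowest in Scutellariae Radix low, with Pinelliae Tuber low between.

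NRF2 target genes rose together by small amounts. Of 24 tested members 18 were higher and none lower, against 5.44% and 4.87% over all genes. The median log2 fold change over the list was 0.26. Without replicate 3, 15 members were higher and none lower (median 0.29), against 2.44% and 1.8% over all genes. Against Pinelliae Tuber low, 18 were higher with all libraries and 17 without replicate 3, against 2.71% and 1.43% over all genes. The 14 that passed in each of these 4 fits were ABCC2, ABCC3, AKR1B10, AKR1C1, AKR1C2, GCLC, GCLM, GSR, HMOX1, NQO1, OSGIN1, SRXN1, TXN and TXNRD1. In Pinelliae Tuber low against Vehicle 1 member was called, SLC7A11, against 0.272% of all genes, and the list median was -0.034.

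The strongest NRF2 genes were reductases. AKR1B10, an aldo-keto reductase gene, stood at 176, 175 and 157 CPM in Scutellariae Radix low and 95.0, 93.3 and 98.9 in Vehicle, 1.77-fold higher (log2 0.82 ± 0.0542, adjusted p = 1.9e-15). NQO1, the quinone reductase gene, reached 996, 972 and 1050 CPM in Scutellariae Radix low, against 685, 661 and 663 in Vehicle (log2 0.59 ± 0.0386, adjusted p = 1.9e-15). In both genes the groups did not overlap, as in 24.9% of all tested genes. Pinelliae Tuber low matched Vehicle at 93.8 ± 3.47 and 660 ± 16.1 CPM (SD, n = 3). The log2 fold changes against Pinelliae Tuber low were 0.85 for AKR1B10 and 0.61 for NQO1.

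Genes of glutathione and thioredoxin metabolism moved by less. GCLM, the modifier subunit of the enzyme that starts glutathione synthesis, had 81.9, 74.9 and 68.6 CPM in Scutellariae Radix low and 56.5, 54.8 and 52.0 in Vehicle (log2 0.47 ± 0.0618, adjusted p = 7.4e-07). Its catalytic partner GCLC averaged 116 ± 9.24 CPM in Scutellariae Radix low and 103 ± 1.12 in Vehicle (log2 0.18 ± 0.043, adjusted p = 0.0042). The modifier subunit thus showed the larger fold change of the pair. TXNRD1, the cytosolic thioredoxin reductase gene, averaged 319 ± 21.4 CPM in Scutellariae Radix low and 237 ± 5.48 in Vehicle (log2 0.43 ± 0.0369, adjusted p = 1.3e-11). SRXN1, which encodes sulfiredoxin, gave 0.40 ± 0.0407, and HMOX1, the haem oxygenase gene, 0.25 ± 0.0506 (adjusted p = 0.00074). In these genes replicate 3 lay below replicates 1 and 2, and their fold changes were larger without it.

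Export and conjugation genes were part of the same picture of modest changes. ABCC2, an apical exporter of conjugates, averaged 441 ± 41 CPM in Scutellariae Radix low and 340 ± 8.26 in Vehicle (log2 0.38 ± 0.0453, adjusted p = 8e-08). Its relative ABCC3 gave 0.30 ± 0.0467, and the drug efflux pump gene ABCB1 gave 0.25 ± 0.0411 (adjusted p = 4.3e-05). Of 14 tested conjugation genes 3 were higher and 1 lower, against 5.44% and 4.87% over all genes. Without replicate 3 the counts were 2 and 1, against 2.44% and 1.8%. UGDH, which makes the sugar donor for glucuronidation, averaged 615 ± 14.4 CPM in Scutellariae Radix low and 539 ± 19.3 in Vehicle (log2 0.19 ± 0.0355, adjusted p = 0.00029). SULT1A1, a phenol sulfotransferase gene, gave 0.26 ± 0.0426 (adjusted p = 3.8e-05), but it has near-identical copies whose reads may be shared out. UGT2B4, a glucuronosyltransferase gene, moved the other way, with 2.45, 2.67 and 3.63 CPM in Scutellariae Radix low and 4.32, 3.91 and 4.68 in Vehicle (log2 -0.56 ± 0.127, adjusted p = 0.0027).

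Among genes outside the lists, SOS1 had the lowest adjusted p. It encodes a nucleotide exchange factor for RAS and had 168, 157 and 139 CPM in Scutellariae Radix low, against 84.4, 94.2 and 88.5 in Vehicle. No extract library came near a Vehicle library. A lack of overlap was part of the rule for the largest rises and occurred in 24.9% of all tested genes, so it is no separate result. The log2 fold change was 0.80 ± 0.0478 (adjusted p = 1.2e-16), 0.87 without replicate 3 and 0.70 against Pinelliae Tuber low. LINC00511, a long noncoding RNA gene, had 28.1, 27.2 and 29.1 CPM in Scutellariae Radix low and 17.6, 15.7 and 19.3 in Vehicle (log2 0.68 ± 0.0565, adjusted p = 4.4e-12). Replicate 3 was not set apart in that gene, and Pinelliae Tuber low was at the Vehicle level.

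MBL2 encodes mannose-binding lectin, a liver protein that starts the lectin pathway of complement, and averaged 20.4 ± 1.14 CPM in Scutellariae Radix low and 11.9 ± 0.207 in Vehicle (log2 0.78 ± 0.0806, adjusted p = 1.8e-09). Its rise over Pinelliae Tuber low was smaller, 0.53 ± 0.079. SORCS2, a sorting receptor gene, averaged 5.4 ± 0.642 CPM in Scutellariae Radix low and 3.17 ± 0.0821 in Vehicle (log2 0.77 ± 0.13). AQP3, a water and glycerol channel gene, averaged 6.3 ± 0.412 CPM in Scutellariae Radix low and 3.98 ± 0.352 in Vehicle (log2 0.66 ± 0.111). AREG, a ligand of the EGF receptor, averaged 9.28 ± 1.29 CPM in Scutellariae Radix low and 6.06 ± 0.172 in Vehicle (log2 0.61 ± 0.0973). The 3 genes last named also rose against Pinelliae Tuber low, by 0.79, 0.85 and 0.58 on the log2 scale, and kept their calls without replicate 3.

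Metallothionein genes fell together. Of the 8 tested members of that list, which includes the zinc exporter gene SLC30A1, 6 were lower and none higher, with and without replicate 3. The shares lower over all genes were 4.87% and 1.8%. MT2A had 304, 343 and 382 CPM in Scutellariae Radix low and 514, 436 and 501 in Vehicle (log2 -0.50 ± 0.0931, adjusted p = 0.00028). MT1X had 41.3, 49.7 and 54.1 CPM in Scutellariae Radix low and 68.9, 63.2 and 72.6 in Vehicle (log2 -0.50 ± 0.0772, adjusted p = 1.4e-05). Replicate 3 was the highest extract library in both, and neither gene's groups overlapped, as in 24.9% of all tested genes. MT1E, MT1F and MT1G gave -0.50, -0.46 and -0.48, and MT1M, at 1.15 ± 0.227 CPM in Scutellariae Radix low and 2.7 ± 0.45 in Vehicle, gave -1.24 ± 0.226 (adjusted p = 0.00018).

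These genes lie in 1 cluster on chromosome 16 and have short, similar transcripts, so their counts are not fully separate measurements. Without replicate 3 the falls were larger, between -0.58 and -0.63 for the 5 abundant genes. In the comparison with Pinelliae Tuber low they were smaller, and 4 of 8 were lower, or 5 without replicate 3. The shares lower over all genes there were 2.95% and 1.24%. MT1F kept most of its fall there (log2 -0.42 ± 0.0748, adjusted p = 0.0002), while MT1E (-0.24, adjusted p = 0.091) and MT1G (-0.18, adjusted p = 0.37) did not pass. In Pinelliae Tuber low against Vehicle no member was called, and the list median was -0.20. SLC30A1 gave -0.10 ± 0.0386 against Vehicle (adjusted p = 0.092), and MT1A was not called either.

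PDGFRB, a receptor tyrosine kinase gene, had 6.64, 6.05 and 6.06 CPM in Scutellariae Radix low and 9.1, 10.9 and 9.83 in Vehicle (log2 -0.67 ± 0.0957, adjusted p = 3.3e-06). CDKN2B, which encodes an inhibitor of the kinases CDK4 and CDK6, had 4.56, 3.74 and 3.56 CPM in Scutellariae Radix low and 6.79, 6.55 and 5.74 in Vehicle (log2 -0.68 ± 0.107). SLC6A12, a betaine and GABA transporter gene, averaged 5.83 ± 0.908 CPM in Scutellariae Radix low and 9.15 ± 0.269 in Vehicle (log2 -0.66 ± 0.108). These 3 genes were named by a rule that required no overlap between groups, so their lack of overlap is no separate result. Against Pinelliae Tuber low they fell by 0.71, 0.70 and 0.55 on the log2 scale. PDGFRB is also on the list of fibroblast markers. That list summed to between 52.3 and 56.1 CPM in Scutellariae Radix low and between 65.3 and 70.8 in Vehicle, mostly ACTA2, while COL1A2, DCN and FAP had no reads in either group.

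Of 21 tested immediate early, SRF and YAP targets 6 were lower and 2 higher, and 5 and 1 without replicate 3. Over all genes 4.87% were lower and 5.44% higher, and 1.8% and 2.44% without replicate 3. The balance of directions was not tested. EGR1, an immediate early factor, had 8.92, 8.24 and 7.27 CPM in Scutellariae Radix low and 12.7, 11.6 and 11.9 in Vehicle (log2 -0.56 ± 0.0921, adjusted p = 3.5e-05). CCN2, a matricellular protein gene and YAP target, had 136, 127 and 131 CPM in Scutellariae Radix low and 179, 167 and 171 in Vehicle (log2 -0.39 ± 0.0701, adjusted p = 0.00014). Both also fell against Pinelliae Tuber low, by 0.46 and 0.44, while AREG, on the same list, rose. DKK1, a secreted Wnt antagonist, had 77.8, 79.5 and 96.7 CPM in Scutellariae Radix low and 113, 111 and 114 in Vehicle (log2 -0.41 ± 0.0486, adjusted p = 5.6e-08). Replicate 3 was the extract library nearest to Vehicle, and without it the log2 fold change was -0.52.

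Several single genes fell by similar amounts in both comparisons. FOXO4, a forkhead factor gene, averaged 9.12 ± 0.602 CPM in Scutellariae Radix low and 13.1 ± 0.112 in Vehicle (log2 -0.53 ± 0.0825). CD24, a surface sialoglycoprotein gene, averaged 17.6 ± 1.32 CPM in Scutellariae Radix low and 24.1 ± 0.647 in Vehicle (log2 -0.45 ± 0.0638). TXNIP, which binds thioredoxin and limits glucose uptake, had 23.8, 25.2 and 23.7 CPM in Scutellariae Radix low and 29.3, 31.7 and 31 in Vehicle (log2 -0.34 ± 0.0553, adjusted p = 2.9e-05). Set against Pinelliae Tuber low, these 3 gave -0.46, -0.54 and -0.37, each with a call. NGFR, the p75 neurotrophin receptor gene, had 2.61, 2.63 and 2.35 CPM in Scutellariae Radix low and 4.78, 5.16 and 5.43 in Pinelliae Tuber low (log2 -1.02 ± 0.129, adjusted p = 3.5e-07). CDRT4 had the lowest log2 fold change among called genes, with 0.496, 0.717 and 0.341 CPM in Scutellariae Radix low and 9.84, 8.11 and 5.94 in Vehicle. It overlaps an annotated readthrough gene and spread from 2.3 to 11.9 CPM within Pinelliae Tuber low, so its value is uncertain.

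**Figure D3:**
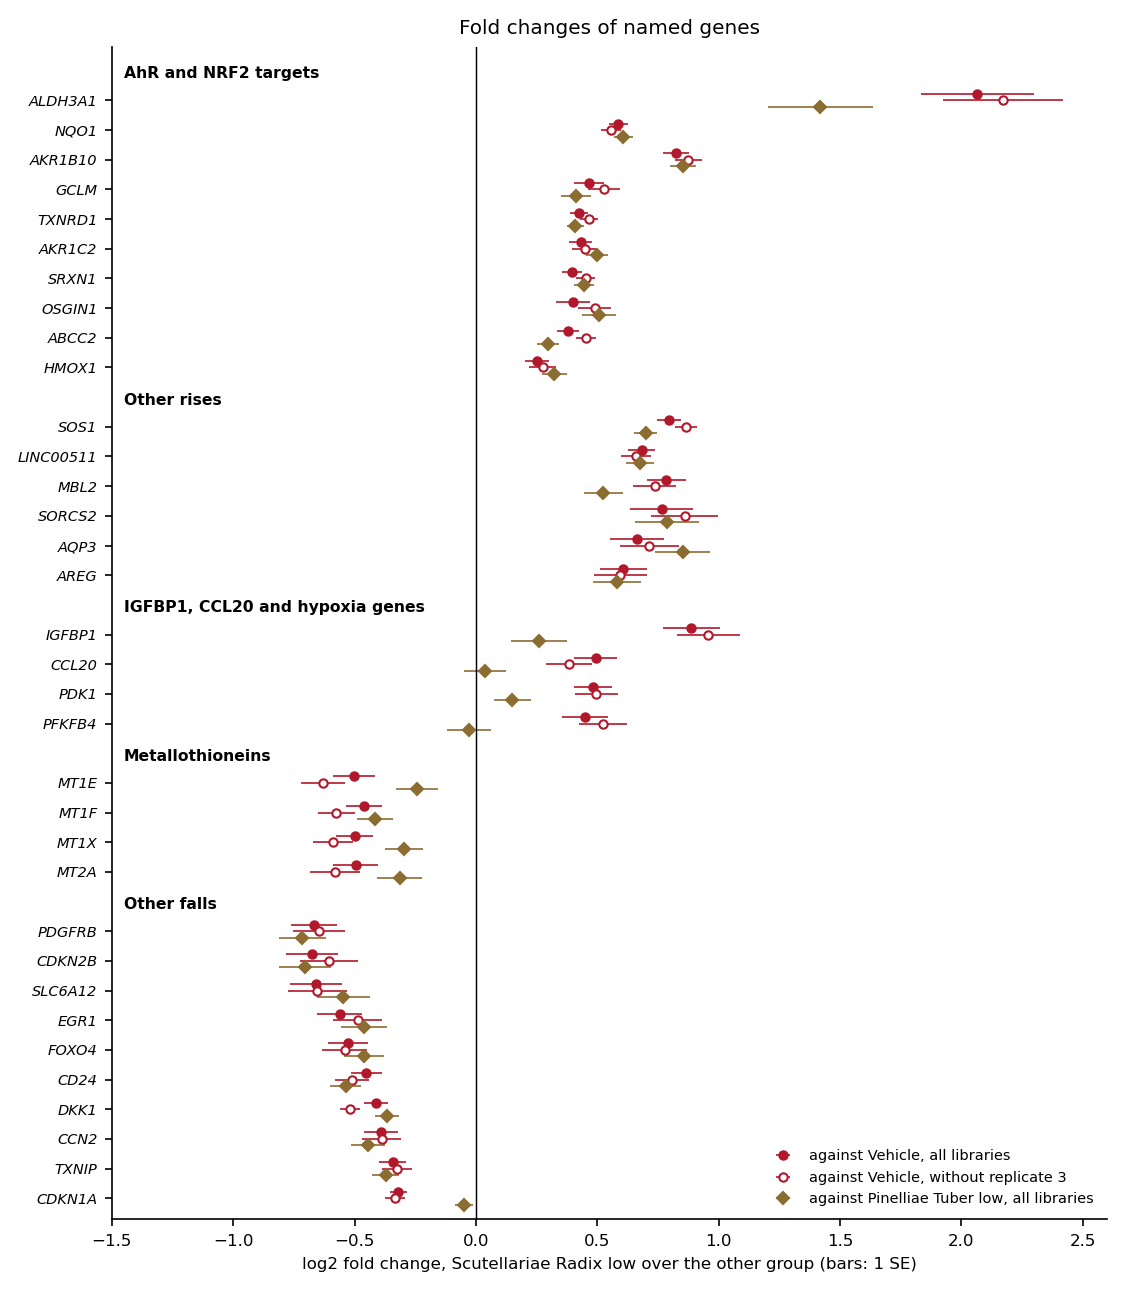
Log2 fold change (bars, 1 SE) of named genes in Scutellariae Radix low against Vehicle with all libraries (filled circles), against Vehicle without replicate 3 (open circles) and against Pinelliae Tuber low (diamonds); CYP1A1, at 4.25, is not drawn. The diamonds of IGFBP1, CCL20, PDK1, PFKFB4 and CDKN1A sit well nearer 0 than their circles, those of ALDH3A1, MBL2 and the metallothioneins sit less far off, and most NRF2 targets keep all 3 symbols close together.

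A further set of genes differed from Vehicle but not, or less, from Pinelliae Tuber low. IGFBP1, a hepatic binding protein for insulin-like growth factors, had 91.3, 72.1 and 70.4 CPM in Scutellariae Radix low and 42.3, 38.4 and 46.0 in Vehicle (log2 0.89 ± 0.119, adjusted p = 8.5e-07). Pinelliae Tuber low had 73.4, 68.0 and 54.6 CPM, overlapping the extract libraries, and the log2 fold change against it was 0.26 ± 0.115 (adjusted p = 0.18). IGFBP1 was itself called in Pinelliae Tuber low against Vehicle (log2 0.63, adjusted p = 0.0087). CCL20, a chemokine gene, averaged 31.6 ± 5.21 CPM in Scutellariae Radix low, 30.8 ± 2.01 in Pinelliae Tuber low and 22.5 ± 1.67 in Vehicle. CDKN1A, the p21 cell cycle inhibitor gene, averaged 81.9 ± 1.55 CPM in Scutellariae Radix low, 84.8 ± 1.32 in Pinelliae Tuber low and 102 ± 0.813 in Vehicle. Both extracts thus shared the difference from Vehicle in these 3 genes, and the label prefix runs with it.

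Hypoxia and glycolysis genes followed that pattern as a list. Against Vehicle 13 of 26 were higher and 1 lower (median log2 0.19), compared with 5.44% and 4.87% over all genes. Without replicate 3 the counts were 12 and 1, compared with 2.44% and 1.8%. Against Pinelliae Tuber low 4 were higher and 1 lower (median 0.032), and 1 and 1 without replicate 3. All tested genes had 2.71% higher and 2.95% lower there, and 1.43% and 1.24% without replicate 3. In Pinelliae Tuber low against Vehicle 2 were higher, compared with 0.237% over all genes, and the median was 0.13. PDK1, which restrains pyruvate entry into mitochondria, had 34.9, 31.5 and 32.3 CPM in Scutellariae Radix low, 30.8, 30.0 and 28.2 in Pinelliae Tuber low and 21.1, 22 and 27.6 in Vehicle. PFKFB4, a regulator of glycolytic flux, averaged 16.6 ± 1.84 CPM in Scutellariae Radix low, 17.0 ± 2.68 in Pinelliae Tuber low and 12.2 ± 0.84 in Vehicle. The glucose transporter gene SLC2A1 was lower in all 4 fits (log2 -0.19 ± 0.037 against Vehicle and -0.18 against Pinelliae Tuber low).

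Some lists lost calls when replicate 3 was left out, which also leaves 1 library fewer. Of 30 ribosomal protein genes 9 were higher against Vehicle with all libraries, and none without replicate 3. Over all genes the shares higher were 5.44% and 2.44%, and the shares lower 4.87% and 1.8%. RPS18 had 779, 782 and 971 CPM in Scutellariae Radix low and 761, 697 and 747 in Vehicle, so replicate 3 was the library that stood out. Of 21 nuclear genes of the respiratory chain 4 were higher and 1 lower, and none without replicate 3. Mitosis genes had 4 higher calls and 1 without replicate 3, and DNA replication genes 2 and none. CDK1, the mitotic kinase gene, had 91.8, 91.0 and 121 CPM in Scutellariae Radix low and 84.7, 84.3 and 86.1 in Vehicle. For CDK1 the log2 fold change was 0.25 with all libraries and 0.10 without replicate 3 (adjusted p = 0.013 and 0.39). Other losses came with little change in the fold, as in CYC1, a subunit of complex III (log2 0.22 and 0.20, adjusted p = 0.024 and 0.11), and BUB1B, a mitotic checkpoint kinase gene (0.15 and 0.12, adjusted p = 0.0049 and 0.061).

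The reverse also occurred, with calls that were stronger once replicate 3 was left out. CPT1A, the gate of mitochondrial fatty acid oxidation, had 52.5, 45.2 and 37.3 CPM in Scutellariae Radix low and 37.5, 39.1 and 38.9 in Vehicle. Replicate 3 lay just below the Vehicle libraries, and the log2 fold change of CPT1A was 0.23 with all libraries and 0.34 without it (adjusted p = 0.016 and 3.5e-05). HNF4A, the central hepatocyte factor gene, had 428, 418 and 360 CPM in Scutellariae Radix low and 368, 379 and 370 in Vehicle. Against Vehicle it was called without replicate 3 only (log2 0.18, adjusted p = 0.0016). Against Pinelliae Tuber low it was called with all libraries (0.17, adjusted p = 0.011) and without replicate 3 (0.24, adjusted p = 3.5e-05). Other called members of the hepatocyte transcription factor list went the other way. Of 15 tested members none was higher than in Vehicle and 4 were lower with all libraries, against 5.44% and 4.87% over all genes. Without replicate 3, 1 was higher (HNF4A) and 2 were lower, against 2.44% and 1.8% over all genes. FOXA3 (log2 -0.355, and -0.37 without replicate 3) and GATA6 (-0.532 and -0.573) were lower than in Vehicle in both fits. Against Pinelliae Tuber low GATA6 was not called (adjusted p = 0.094, and 0.18 without replicate 3). FOXA3 was called there with all libraries only (adjusted p = 0.034, and 0.07 without replicate 3). HAMP, the hepcidin gene, lost its call against Vehicle without replicate 3 (adjusted p = 0.0079 and 0.11) with log2 fold changes of 0.29 and 0.22.

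Calls in the lipid and stress lists stand against 4.87% lower and 5.44% higher over all genes. Without replicate 3 these shares were 1.8% and 2.44%, and against Pinelliae Tuber low with all libraries 2.95% and 2.71%. Of 23 cholesterol genes 5 were lower and none higher, and 2 without replicate 3, while HMGCS1 was not called. Fatty acid synthesis and LXR targets had 3 lower of 16 and 2 without replicate 3. FADS2, a desaturase gene, averaged 206 ± 9.02 CPM in Scutellariae Radix low and 235 ± 2.24 in Vehicle (log2 -0.19 ± 0.037, adjusted p = 0.00044), and ACSS2, an acetyl-CoA synthetase gene, gave -0.21 ± 0.0362. Both were also lower against Pinelliae Tuber low in each fit. Of 21 ATF4 and CHOP targets 5 were higher and 2 lower with and without replicate 3, and 2 and none against Pinelliae Tuber low. DDIT3, which encodes CHOP, averaged near 12 CPM in both groups (log2 -0.05 ± 0.0785, adjusted p = 0.76). ASNS, the asparagine synthetase gene, gave 0.20 ± 0.05 (adjusted p = 0.0073) and 0.17 without replicate 3 (adjusted p = 0.067).

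In the autophagy and lysosome list 1 of 20 was higher and 4 lower, and 1 and 2 without replicate 3. For this and the next 2 lists, the shares over all genes were 5.44% higher and 4.87% lower, and 2.44% and 1.8% without replicate 3. SQSTM1, the cargo receptor p62 and also a known NRF2 target, averaged 284 ± 13.8 CPM in Scutellariae Radix low and 258 ± 3.74 in Vehicle (log2 0.14 ± 0.0356, adjusted p = 0.0095). TFEB, the master factor gene of lysosome biogenesis, averaged 10.9 ± 0.657 CPM in Scutellariae Radix low and 14.1 ± 0.799 in Vehicle (log2 -0.38 ± 0.075, adjusted p = 0.00068). WIPI1, a phagophore protein gene, gave -0.31 ± 0.0497 (adjusted p = 3.3e-05). All 3 kept these directions and calls against Pinelliae Tuber low and without replicate 3. Of 18 p53 targets 2 were lower, and 1 without replicate 3. Of 12 tested genes of iron handling 2 were higher and 2 lower, and 1 and 1 without replicate 3. TFRC, the transferrin receptor gene, averaged 572 ± 18.8 CPM in Scutellariae Radix low and 470 ± 15 in Vehicle (log2 0.28 ± 0.0388).

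By list median, liver secretory genes were nearly level with Vehicle. Of 24 secreted plasma proteins 2 were higher and 1 lower, and 2 and 3 without replicate 3, with list medians of -0.003 and -0.044. The shares over all genes were 5.44% and 4.87%, and 2.44% and 1.8% without replicate 3. ALB had 9640, 9410 and 10600 CPM in Scutellariae Radix low and 10400, 10000 and 10500 in Vehicle, overlapping (log2 -0.06 ± 0.0378, adjusted p = 0.31). AMBP, which encodes alpha-1-microglobulin and bikunin, rose by 0.19 ± 0.0344 (adjusted p = 0.00018). Against Pinelliae Tuber low 1 of the 24 was higher and 4 were lower, and 1 and 2 without replicate 3. All tested genes had shares of 2.71% and 2.95% there, and 1.43% and 1.24% without replicate 3. ALB was among those lower, at log2 -0.12 (adjusted p = 0.048) and -0.17 without replicate 3 (adjusted p = 0.0033). No gene of the interferon list or of the mitochondrial DNA was called by edgeR, of 14 and 13 tested, with or without replicate 3.

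**Figure D4:**
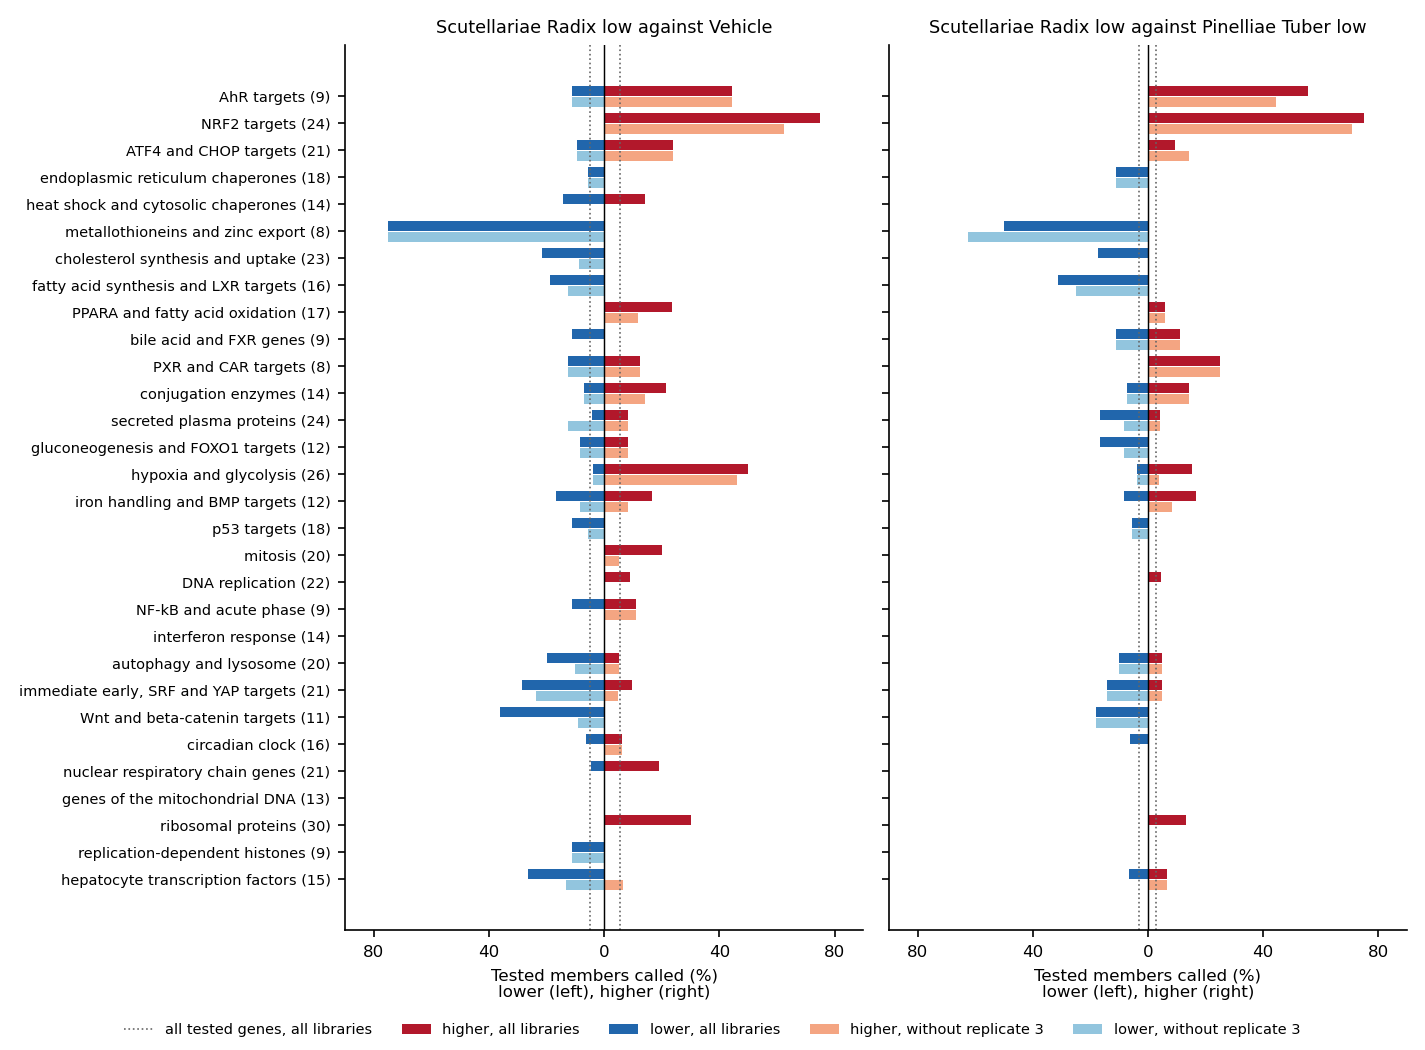
Share of the tested members of each gene list (number tested in brackets) called higher (right) or lower (left) in Scutellariae Radix low, against Vehicle and against Pinelliae Tuber low, with all libraries (dark) and without replicate 3 (light). Dotted lines are the shares over all tested genes with all libraries, and no line is drawn for the fits without replicate 3. AhR targets, NRF2 targets and metallothioneins stand out in both panels, hypoxia and glycolysis genes in the left one, and the bars of ribosomal proteins vanish without replicate 3.

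The same genes were read at the next doses of the extract, which share the Vehicle libraries with the low dose, so their values are given side by side and no overlap is counted. At 100 µg/mL 1253 genes were higher than in Vehicle and 1301 lower (8.99% and 9.33%), and at 500 µg/mL 3998 and 3914 (28.7% and 28.1%). CYP1A1 averaged 12.5 ± 1.65 CPM in Vehicle, 237 ± 33.3 at 20, 681 ± 25.6 at 100 and 470 ± 14.1 at 500 µg/mL (SD, n = 3 each). SOS1 had the same order, with 89.1 ± 4.94 CPM in Vehicle, 155 ± 14.7 at 20, 321 ± 14.2 at 100 and 225 ± 8.99 at 500 µg/mL. Both genes were thus highest at the middle dose. NQO1 averaged 669 ± 13.5 CPM in Vehicle, 1010 ± 39.1 at 20, 1170 ± 35.1 at 100 and 1110 ± 10.6 at 500 µg/mL.

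Genes that parted company at 500 µg/mL were of several kinds. IGFBP1 averaged 42.2 ± 3.83 CPM in Vehicle, 77.9 ± 11.6 at 20, 97.9 ± 8.5 at 100 and 984 ± 34.9 at 500 µg/mL. AQP3 averaged 3.98 ± 0.352 CPM in Vehicle, 6.3 ± 0.412 at 20, 11.6 ± 0.913 at 100 and 146 ± 6.68 at 500 µg/mL. Both rose at each dose, with the largest step at the last. EGR1 and CDKN2B changed direction, with EGR1 at log2 -0.56, -0.64 and 2.87 and CDKN2B at -0.68, -0.72 and 2.47 at 20, 100 and 500 µg/mL. CDKN1A, lower than Vehicle at the low dose, was level with it at 100 (log2 -0.01, adjusted p = 0.89) and higher at 500 µg/mL (2.15). MBL2 and SORCS2 rose at 20 and 100 µg/mL and were not higher at 500 µg/mL, where MBL2 was not called (log2 0.13, adjusted p = 0.21) and SORCS2 was lower (-0.38).

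By list, 18, 21 and 22 of 24 NRF2 targets were higher at 20, 100 and 500 µg/mL, and 6, 7 and 7 of 8 metallothionein list members were lower. Mitosis genes gave 4 higher at 20 µg/mL, 2 higher and 2 lower at 100 and 20 lower of 20 at 500 µg/mL. Plasma proteins gave 1, 15 and 21 lower and 2, 1 and 3 higher of 24, and ATF4 and CHOP targets 5, 10 and 21 higher and 2, 4 and 0 lower of 21. At 500 µg/mL 56.7% of all tested genes were called, so these last counts stand against a high share.

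**Figure D5:**
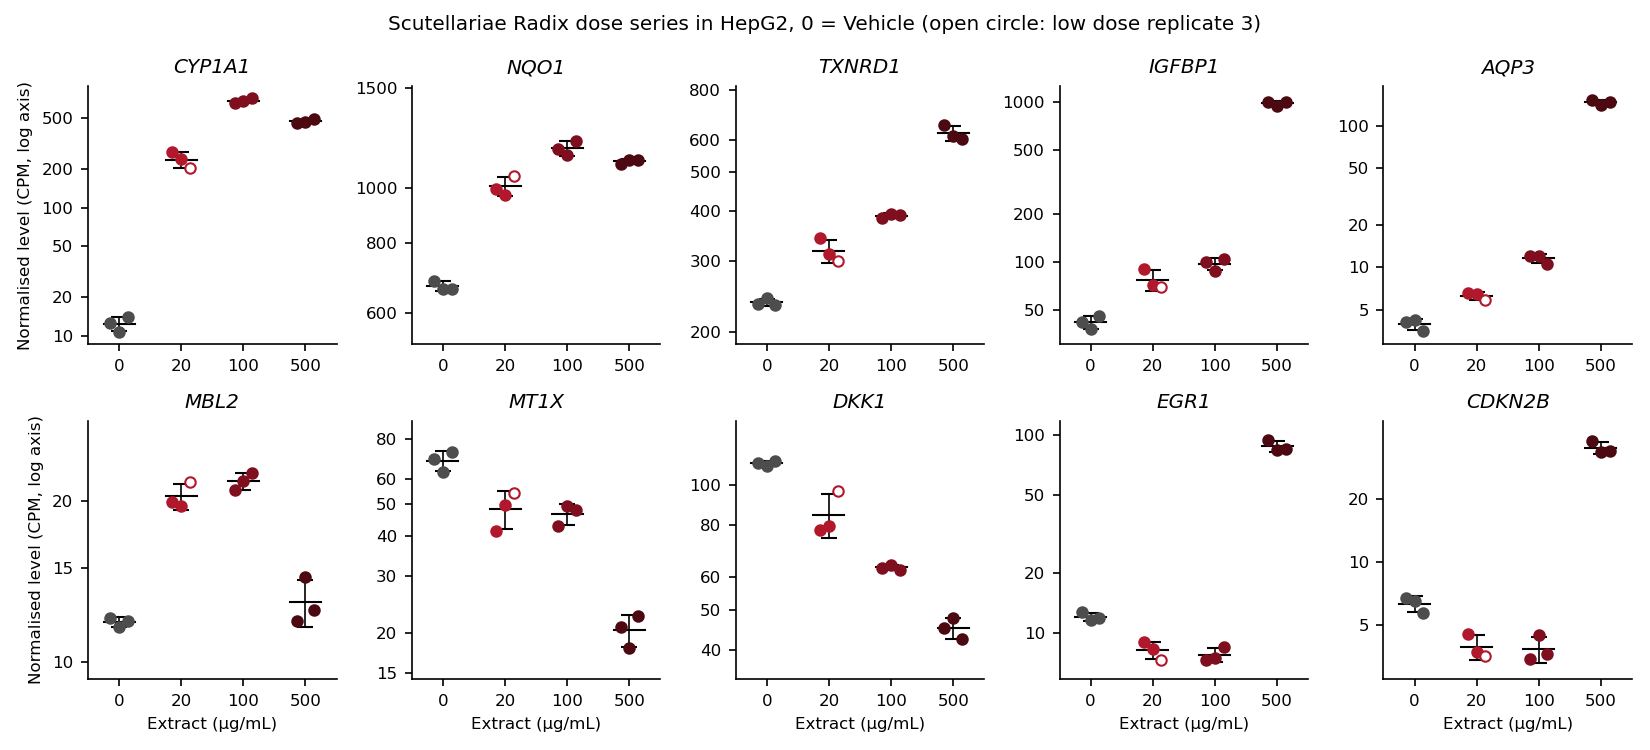
Normalised level in CPM (log axis) of 10 genes in Vehicle (0) and at 20, 100 and 500 µg/mL of the Scutellariae Radix extract; points are libraries, bars the mean and 1 SD of 3, and the open circle is low dose replicate 3. CYP1A1 is highest at 100 µg/mL, IGFBP1 and AQP3 climb most at 500 µg/mL, MT1X and DKK1 lie below Vehicle at each dose, and EGR1 and CDKN2B lie below Vehicle at 20 and 100 and above it at 500 µg/mL.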

How the data were processed

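Total RNA of HepG2 cells was made into libraries with a directional kit. Per the submitters' processing notes, FastQC 0.11.9, Trim Galore 0.6.5, STAR 2.7.3a and RSEM 1.3.3 were used with GRCh38. The deposited values were expected counts per gene, which the authors had not scaled between libraries: 75.3% of the nonzero values were whole, and all were rounded here before testing. The table held 209 columns that the labels did not map to these samples, and they were not used. RSEM shares out reads that fit several genes, so near-identical genes and readthrough genes are uncertain.

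Genes that reached 1 CPM in 3 or more of the 58 libraries (13945 of 60675 identifiers) were fitted with edgeR 4.0.16 in R 4.3.3: TMM scaling, quasi-likelihood, 1 mean for each of 24 groups, two-sided p-values adjusted by Benjamini-Hochberg over all tested genes at 0.05. All groups thus shared 1 estimate of the spread (biological coefficient of variation 4.25%). The SE is the size of the log2 fold change divided by the square root of F. CPM are those of edgeR, on TMM library sizes. Transcript length is that of the longest basic transcript in GENCODE 29. Alternatives were DESeq2 1.42.0, other filters and scalings, length and GC trends taken out, a replicate block, a fit of 2 groups only, and each library left out. Simulated counts with 13945 genes tested the low dose against Vehicle. Changes of 1.5-fold were recovered in 87.7% of cases with all libraries and without replicate 3, and changes of 1.2-fold in 46.6% and 37%. The simulation used the same dispersion for all genes and no length or GC trend, so its replicate 3 did not stand apart. Its rates therefore do not give the power in the real libraries, with or without replicate 3.

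The text names, in both comparisons and with and without replicate 3, genes among the 8 largest called rises and falls (named genes only, the higher group averaging 5 CPM or more, no overlap), up to 4 called members of each list, and a panel. Members and lists were chosen with earlier results of these data known. Further list members were named after their values were seen, and some genes that the rule names are left out because they have near-identical copies or are not reported here. The 58 libraries were mapped to groups by their descriptions.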

Additional observations from a re-analysis of the deposited data

How the results depend on the processing

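No called gene chosen by the naming rule reversed its direction under any alternative run, but many lost their call: 43 of 152 against Vehicle and 21 against Pinelliae Tuber low without low dose replicate 3, and 56 and 49 with only the 2 groups in the fit. Of genes described above, the fit of 2 groups lost UGT2B4, SLC2A1, SQSTM1, UGDH, AMBP, ASNS, RPS18, CPT1A and CDK1 against Vehicle, and against Pinelliae Tuber low MT1F, MT1M, MT1X, MT2A, SLC6A12, EGR1, DKK1, AREG, UGT2B4, UGDH, FADS2, ACSS2, SLC2A1, TFRC, AMBP, HAMP and RPS18. Against Vehicle (759 higher, 679 lower), leaving out 1 of the 6 libraries gave 340 to 940 higher and 251 to 821 lower genes, with the low ends from Scutellariae Radix low replicate 3; without Vehicle replicate 2 the counts were 466 and 433 and without Vehicle replicate 3 they were 426 and 421. Against Pinelliae Tuber low (378 and 412), leaving out 1 library gave 190 to 537 higher and 173 to 556 lower: 199 and 173 without Scutellariae Radix low replicate 3, and 190 and 261, 238 and 282, and 249 and 273 without Pinelliae Tuber low replicates 1, 2 and 3. With only the 2 groups in the fit, the counts were 147 and 169 against Vehicle and 68 and 53 against Pinelliae Tuber low; with low dose replicate 3 left out as well they were 418 and 394, and 190 and 148, so that in this fit leaving it out raised the counts. With the length trend taken out and replicate 3 left out they were 345 and 312, and 230 and 178. DESeq2 without replicate 3 gave 256 and 243, and 188 and 162; this, the slope over protein-coding genes below and the fit of 2 groups without replicate 3 against Pinelliae Tuber low were chosen after seeing the data. With no filter on low counts the comparison with Pinelliae Tuber low had 670 higher and 337 lower, 66.5% higher against 47.8% in the reported fit, and DESeq2 with all libraries had 494 and 321, 60.6% higher. The cause was not tested. The other alternatives, RLE scaling, a minimum of 5 CPM, DESeq2 and the length and GC trends, kept the counts against Vehicle within 1.5 times, as did all those run for the medium and high doses.

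Deviations of same-numbered replicates from their group means correlated at -0.053, 0.016 and -0.013 with Vehicle and at 0.06, -0.015 and 0.057 with Pinelliae Tuber low. Between different numbers the correlations ran from -0.078 to 0.095 with Vehicle and from -0.069 to 0.023 with Pinelliae Tuber low. Whether a shared number marks a shared culture or run was not tested. A replicate block gave 796 and 698 against Vehicle and 400 and 433 against Pinelliae Tuber low, and with only the 2 groups in the fit 162 and 153, and 80 and 57. The slope of replicate 3 on length was -0.0624 over protein-coding genes only. With 3 libraries a group, changes of 1.2-fold were often missed in simulated counts, which held no length or GC trend. CYP1A2 lay near the detection limit.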
